A study of Rattus norvegicus with 38 samples.

Results

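The genes described here are the organic ion, bile acid and drug transporters of rat liver. They are all gene names in the count table that belong to the Slc10a, Slc22a, Slco, Slc47a, Abcb, Abcc and Abcg families, 73 of 31038 names. The rule selects by name and uses no measured value. The Slc22a family has 20 members, Slco 15, Abcb 10, Abcc 10, Abcg 9, Slc10a 7 and Slc47a 2. Of the 73, 56 had enough counts to be tested. The other 17 stayed under the low-count filter, with at most 110 counts over 38 libraries, and 4 of them had 0 counts in every library.

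Livers of 38 rats of the outbred Sprague-Dawley strain, collected on day 28, were sequenced for RNA. Lipopolysaccharide (LPS), a component of the outer membrane of gram-negative bacteria that provokes inflammation, was given by intraperitoneal injection. The sources used here do not give its dose or timing. EF and PF, at 2.5 g/kg each, and RD, at 200 mg/kg, are extracts known only by these letters and were delivered by the intragastric route. The 4 groups without LPS were control (n = 5, neither LPS nor extract), EF (n = 5), EF_PF (n = 5, EF together with PF) and EF_RD (n = 4, EF together with RD). The 4 groups with LPS were LPS (n = 5, no extract), LPS_EF (n = 5), LPS_EF_PF (n = 4) and LPS_EF_RD (n = 5). PF and RD were never given without EF. Libraries are named below by group and the number in their label.

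The 8 transporters singled out by role lie on 6 chromosomes of the count table's build, rn6 per the file header: Slc10a1 at chr6:104617730-104631355 (minus), Slco1b2 at chr4:175814118-175881775 (plus), Abcb11 at chr3:55480024-55587946 (minus) and Abcc2 at chr1:263554426-263612556 (plus). Abcc3 is at chr10:82047308-82116928 (minus) and Abcc4 at chr15:103695415-103927980 (minus). Abcg5 and Abcg8 adjoin on chromosome 6 and are placed below.

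Hepatocytes move bile acids and drugs from blood to bile. Carriers of the solute carrier families Slc10a, Slco and Slc22a bring bile acids, organic anions and organic cations in across the sinusoidal membrane, which faces the blood. ATP-driven pumps of the ABC families send them out across the canalicular membrane into bile, or back across the basolateral membrane into blood. Loss of uptake carriers and canalicular pumps during inflammation is a known feature of cholestasis of sepsis, in which bile flow falls.

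The libraries held 19716622 to 35835012 counted read pairs, and all carry 1 batch label. The labels name hepatocytes, but no step that separates them is described, and markers of other liver cells were present in every library. The summed level of 12 hepatocyte markers was 131345 to 211869 CPM (counts scaled to a common library size) over the 8 groups, with none of the markers at 0. Markers of other tissues were high in 3 libraries: 10 exocrine pancreas markers summed to 2850 CPM in control 5, 1697 in LPS 3 and 101 in EF_RD 1, against at most 7.08 in the others. In EF_RD 1, 10 skeletal muscle markers summed to 4238 CPM, and in LPS 3 to 428 CPM. Kidney markers, from an organ rich in Slc22a carriers, summed to at most 2.06 CPM, with 1 of 8 at 0 in all libraries. Some transporter results are also given without those 3 libraries, while marker calls are not. In whole liver, fewer cells of a type and less RNA per cell cannot be told apart.

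Levels between genes were compared on the scale of TPM, which divides counts by gene length and scales each library to 1 total. Slc10a1, the sodium-dependent bile acid carrier, had the highest level of the 73 in control liver at 784 ± 61.8 TPM (SD, n = 5), 22.7% of the summed TPM of all members. Slco1b2, a carrier of bilirubin, bile acids and drugs, followed at 434 ± 44.2 TPM. The canalicular pumps Abcc2, for conjugated bilirubin and glutathione conjugates, and Abcb11, the bile salt export pump, stood at 392 ± 97.6 and 295 ± 60.3 TPM. Among the first 15 in this order, Slc10a1 alone had a range over the 5 control livers that did not overlap with that of the next gene. These 4 genes made up 55.2% of the members' TPM, and the first 10 made up 83.8%.

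The next 6 in the order were uptake carriers of the Slco1a and Slc22a groups or, for Slc22a18, a carrier of uncertain substrate. Their control levels ran from 190 ± 43.2 TPM for Slco1a2 to 121 ± 11.1 TPM for Slc22a7. The sterol transporter subunits Abcg5 and Abcg8 were far lower, Abcg5 at 14.8 ± 6.86 TPM. The summed TPM of all members was 3449 ± 231 in control (3107 to 3705) and 2357 ± 214 in LPS (1997 to 2563), so the ranges of these groups did not overlap. With extract and LPS together the summed TPM was 2494 ± 565 in LPS_EF, 2432 ± 93.0 in LPS_EF_PF and 2444 ± 248 in LPS_EF_RD.

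**Figure D1:**
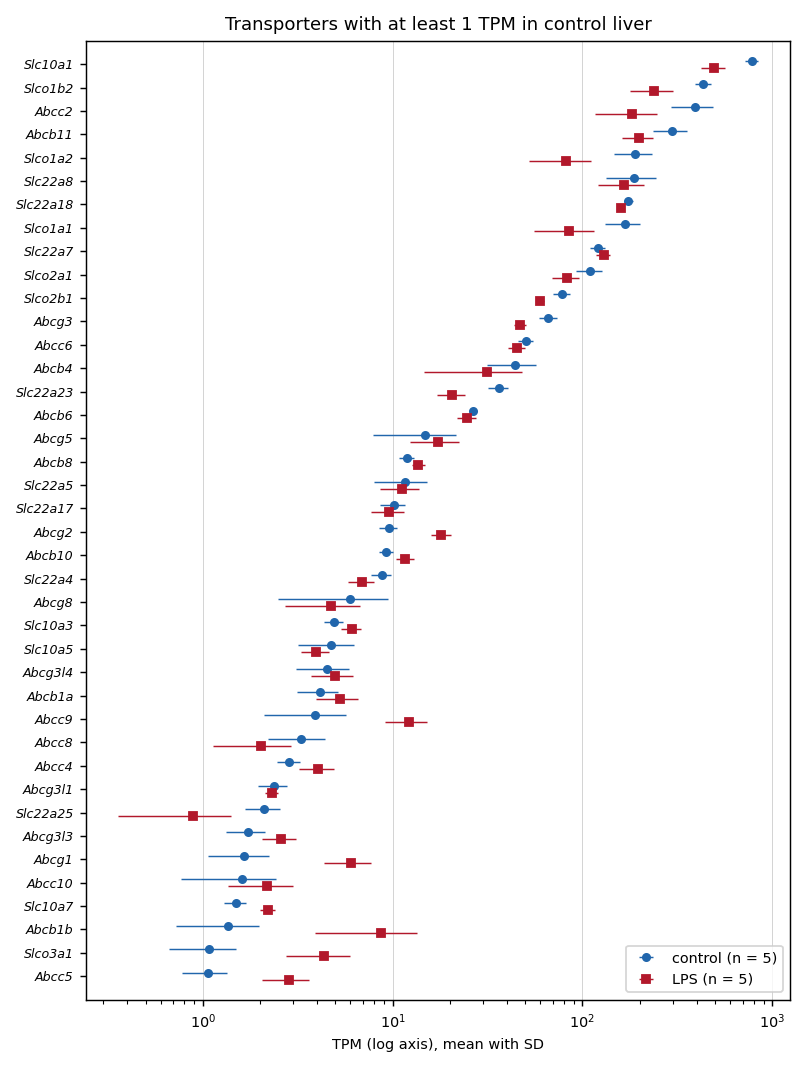
Mean TPM with SD (log axis) of each transporter with at least 1 TPM in control liver, in control (circles, n = 5) and LPS (squares, n = 5), with 2 genes not drawn. Slc10a1 is at the top with 784 TPM in control and 493 in LPS. Most genes in the upper rows lie further left after LPS, while Abcb1b, Abcg1 and Slco3a1 near the bottom lie further right.

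LPS against control asked what the injection alone was associated with. Of the 56 tested transporters, 31 were called at an adjusted p under 0.05 (edgeR's quasi-likelihood test with Benjamini-Hochberg adjustment over 14786 genes), where 36.8% of all genes tested were called. Among the 31, 13 were higher (18.6% of all genes) and 18 were lower (18.1% of all genes). The median log2 fold change was -0.20 over the 56 and -0.0018 over all genes tested. With the total count as the scaling factor, which moves the median of all genes by 0.13 on the log2 scale, the split was 16 higher and 12 lower of 28 called.

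By family, 7 of 10 tested Slco members were called (5 lower, 2 higher), 7 of 9 Abcc members (3 lower, 4 higher), 6 of 12 Slc22a members (5 lower, 1 higher), 4 of 9 Abcb members (3 lower, 1 higher), 4 of 9 Abcg members (1 lower, 3 higher) and 3 of 6 Slc10a members (1 lower, 2 higher). The 1 tested Slc47a member, Slc47a2, was not called. Over all genes tested, 36.8% were called, 18.6% higher and 18.1% lower.

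Both sinusoidal uptake carriers among the transporters singled out by role fell. Slc10a1 measured 685, 705, 774, 648 and 773 CPM in control 3 to 7, and 365, 394, 442, 360 and 499 CPM in LPS 1 to 5. Every LPS library lay below every control library. The level fell by 0.80 on the log2 scale (SE 0.17), or 1.74-fold, with an adjusted p of 0.000428 in edgeR's test. Slco1b2 measured 776, 808, 831, 719 and 698 CPM in control, and 264, 367, 460, 335 and 494 CPM in LPS. Again the groups did not overlap, and the fall of 0.998 on the log2 scale (SE 0.20) had an adjusted p of 0.00029 in edgeR.

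The bases just before the start sites of these 2 genes are shown because both fell in all 4 LPS comparisons and their promoters share letters. They are from the RefSeq table of assembly GRCr8, with 250 bases before the start, 5′ to 3′ on the gene's strand: Slc10a1 at chr6:106357945-106358194 on the minus strand, and Slco1b2 at chr4:176282334-176282583 on the plus strand. Capitals mark the letters GTTAAT and AGGTCA, the latter the core of the nuclear receptor motif, on either strand.
Slc10a1: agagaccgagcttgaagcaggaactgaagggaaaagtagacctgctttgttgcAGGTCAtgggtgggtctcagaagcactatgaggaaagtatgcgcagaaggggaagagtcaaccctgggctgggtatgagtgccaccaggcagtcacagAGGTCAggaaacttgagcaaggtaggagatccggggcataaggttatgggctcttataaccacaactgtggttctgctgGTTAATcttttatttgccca
Slco1b2: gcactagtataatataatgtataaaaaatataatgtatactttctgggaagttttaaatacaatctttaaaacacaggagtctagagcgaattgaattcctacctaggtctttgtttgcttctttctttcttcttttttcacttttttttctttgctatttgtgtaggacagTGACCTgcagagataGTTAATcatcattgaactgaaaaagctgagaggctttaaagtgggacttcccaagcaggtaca
GTTAAT was in 6.45% of 33469 promoters of this length and in 7 of 44 promoters of tested members, and AGGTCA was in 14.1% and in 8 of 44. Both were in 0.932% of all promoters, and in those of Slc10a1, Slco1b2, Abcc2 and Slc22a25. These motifs and promoters were chosen after the sequences had been looked at, a match is not evidence of binding, and the RefSeq table matched 59 of the 73 members. Other letters were searched as well, with N for any base. GCGTG was in 25.9% of all promoters and 17 of 44, TGACNNNGC in 10.1% and 5 of 44, and TTGCNNAA in 9.22% and 5 of 44.

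Of 12 other uptake carriers of hepatocytes tested, 8 were called lower, where 18.1% of all genes were, 0 were called higher and 4 did not pass. Their median log2 fold change was -0.53. These counts depend on the list, which was chosen with earlier results of these data known. Slco3a1, Slco4a1 and Slc22a15, which were called higher, are not on it, nor is Slc22a4, which was called lower. Slco1a2 measured 351, 414, 425, 270 and 539 CPM in control and 101, 152, 215, 103 and 207 in LPS, with no overlap, and fell by 1.36 (SE 0.32, adjusted p = 0.00113 in edgeR). The name Slco1a2 is a RefSeq synonym of both Slco1a4 and Slco1a5. The count table lists Slco1a5 separately and does not list Slco1a4. This leaves Slco1a4 as the gene meant, though it was not checked against the sequence. Slco1a1, an organic anion carrier, measured 302, 205, 306, 204 and 224 CPM in control and 95.0, 86.0, 105, 101 and 193 in LPS. Its ranges also stayed apart, at 2.14-fold lower in LPS (log2 -1.10, SE 0.23). Slc22a25, a member of the organic ion carrier family at a low level, fell from 2.61 to 3.95 CPM in control to 0.296 to 1.95 CPM in LPS (log2 -1.38, SE 0.39, adjusted p = 0.00632 in edgeR).

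Of the other called members of this group, Slco2b1 fell by 0.52 (SE 0.09) and Slc22a18 by 0.26 (SE 0.09), both without overlap between groups. Slc22a23 fell by 0.94 (SE 0.23), from 109 to 150 CPM in control to 53.8 to 81.8 CPM in LPS. Slco2a1, the prostaglandin carrier, fell by 0.54 (SE 0.20) with overlapping ranges. Slc22a7, an organic anion carrier, was not called, at 90.4 to 122 CPM in control and 91.9 to 116 CPM in LPS (log2 -0.04, SE 0.13). Nor was Slc22a8, whose control libraries ran from 202 to 381 CPM.

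The canalicular pumps split. Abcb11 measured 650, 870, 933, 627 and 1009 CPM in control and 428, 453, 570, 423 and 635 in LPS. The highest LPS library lay just above the lowest control library, and the fall of 0.70 (SE 0.15) was called at an adjusted p of 0.000403 in edgeR. Abcc2 measured 821, 1360, 838, 1015 and 1416 CPM in control and 389, 425, 325, 719 and 443 in LPS, and the ranges did not overlap. Its fall of 1.24 (SE 0.29, 2.37-fold, adjusted p = 0.00121 in edgeR) was the largest of the 8 transporters named in the rule. The promoter of Abcc2, at chr1:252613625-252613874 on the plus strand, is shown with the same letters in capitals, since this gene fell most of the 8 and its promoter holds both.
Abcc2: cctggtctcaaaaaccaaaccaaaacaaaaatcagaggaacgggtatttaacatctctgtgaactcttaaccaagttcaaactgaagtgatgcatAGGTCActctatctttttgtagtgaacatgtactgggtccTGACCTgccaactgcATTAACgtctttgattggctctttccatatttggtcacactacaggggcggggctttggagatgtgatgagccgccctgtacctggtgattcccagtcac

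Abcg5 and Abcg8, which form 1 transporter that exports cholesterol into bile, were not called. Abcg5 measured 15.7, 19.4, 20.8, 39.0 and 16.1 CPM in control and 34.0, 18.8, 31.1, 18.0 and 19.3 in LPS (log2 0.12, SE 0.36, adjusted p = 0.812 in edgeR). Abcg8 measured 11.3, 9.70, 20.1, 33.3 and 13.2 CPM in control and 18.9, 8.60, 19.0, 6.62 and 11.5 in LPS (log2 -0.44, SE 0.47, adjusted p = 0.49). Control 6 was the highest control library for both, and LPS and control overlapped throughout.

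These 2 genes lie head to head. In the count table's annotation, whose header names build rn6, Abcg5 is at chr6:7935771-7961207 on the minus strand and Abcg8 at chr6:7961413-7980708 on the plus strand, so 205 bases separate their starts. In GRCr8 the distance is also 205 bases, at chr6:15717731-15717935, where the pair is inverted, and the GRCr8 bases are printed on the strand of Abcg5 to show how close the starts are; neither GTTAAT nor AGGTCA occurs.
Abcg8-Abcg5: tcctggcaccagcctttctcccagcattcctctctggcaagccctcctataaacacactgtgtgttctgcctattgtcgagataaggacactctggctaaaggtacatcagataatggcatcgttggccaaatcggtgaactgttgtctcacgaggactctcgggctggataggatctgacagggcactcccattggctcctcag
The ratio of Abcg8 to Abcg5 TPM ran from 0.188 to 0.530 over 38 libraries, a 2.81-fold range, while Abcg5 itself varied 6.005-fold and Abcg8 10.7-fold. The ratio was 0.256 to 0.494 in control and 0.188 to 0.314 in LPS, with overlap.

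Of the basolateral pumps, which return bile acids and conjugates to blood, Abcc3 rose. It measured 0.838, 1.65, 3.07, 2.14 and 1.17 CPM in control and 3.49, 4.10, 4.51, 2.69 and 3.46 in LPS. Only LPS 4 fell within the control range, and the rise was 1.04 on the log2 scale (SE 0.30, 2.06-fold, adjusted p = 0.0062 in edgeR). Abcc4 measured 7.82, 9.74, 10.7, 8.90 and 10.04 CPM in control and 15.01, 14.9, 8.88, 12.2 and 10.5 in LPS. Its difference of 0.38 (SE 0.18) did not pass (adjusted p = 0.09 in edgeR), and passed without LPS 3 (0.0432) or without the 3 libraries high for pancreas or muscle markers (0.0311). Both were low beside Abcc2: their summed TPM was 0.0066 to 0.0136 of that of Abcc2 in control and 0.0171 to 0.0393 in LPS.

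**Figure D2:**
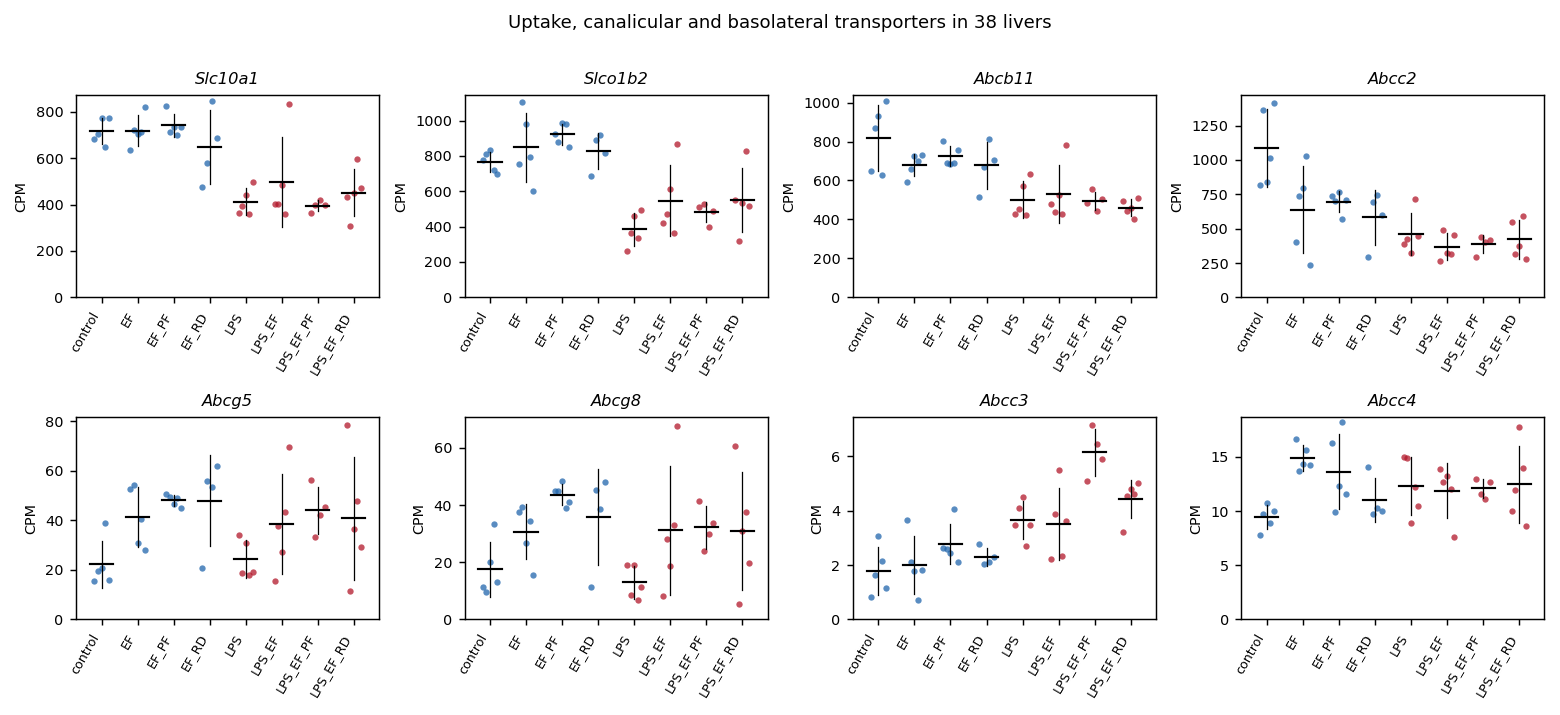
CPM per library for the 8 transporters named in the rule, in 8 groups (blue without LPS, red with LPS); black bars are means with SD, and each axis starts at 0. Slc10a1 and Slco1b2 sit lower in the LPS groups, Abcc3 sits higher, and Abcg5 and Abcg8 overlap between control and LPS. Single high livers stand out, such as LPS_EF 7 for Slc10a1 at 833 CPM.

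Among the 56 tested members, the largest fitted rise was in Abcb1b, a P-glycoprotein that exports many drugs. It measured 3.59, 5.33, 2.0, 4.57 and 1.83 CPM in control and 6.89, 27.6, 29.8, 10.01 and 27.0 in LPS, with no overlap. The rise was 2.54 on the log2 scale (SE 0.66, 5.81-fold, adjusted p = 0.00305 in edgeR). Its paralog Abcb1a, the other P-glycoprotein of rodents, was not called, at 8.34 to 16.2 CPM in control and 11.9 to 20.1 in LPS (log2 0.20, SE 0.27). The TPM ratio of Abcb1b to Abcb1a was 0.161 to 0.526 in control and 0.709 to 2.46 in LPS. Per the file headers, reads that map to several places were left out in counting. Reads shared by these similar genes would be missing, so both levels are uncertain.

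Other exporters rose as well. Abcg1, which moves sterols out of macrophages and other cells, measured 3.87, 6.29, 5.54, 8.53 and 4.43 CPM in control and 17.9, 23.1, 24.2, 17.5 and 13.1 in LPS, which did not overlap (log2 1.74, SE 0.26, adjusted p = 8.50e-06 in edgeR). Abcc5, an exporter of cyclic nucleotides and organic anions, rose from 4.19 to 6.88 CPM to 10.4 to 17.9 CPM (2.45-fold). Abcc1, an exporter of glutathione conjugates, rose 2.36-fold from 0.419 to 2.27 CPM to 2.06 to 4.18 CPM, with overlap. Abcg2, a pump for drugs and urate, rose by 0.79 (SE 0.31, adjusted p = 0.0455 in edgeR) without overlap.

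Further members rose too. Slco3a1, a widely expressed organic anion carrier, measured 2.002, 1.34, 2.70, 1.65 and 1.04 CPM in control and 5.47, 8.09, 9.07, 3.58 and 5.91 in LPS, again apart (3.69-fold, adjusted p = 8.02e-05 in edgeR). Abcc9, a regulatory subunit of potassium channels, rose from 8.96 to 22.2 CPM to 30.9 to 55.1 CPM (2.87-fold). Abcc8, the other such subunit in the family, fell by 0.87 (SE 0.28) with overlap. Slc10a2, the bile acid carrier of ileum and bile ducts, rose by 1.36 (SE 0.43, adjusted p = 0.0136 in edgeR) from 0.948 to 3.13 CPM to 3.04 to 7.72 CPM. Abcg3l3 rose by 0.44 (SE 0.16), a call lost in 8 other settings, with adjusted p up to 0.12, and it overlaps Abcg3 and Abcg3l4 in the annotation, so its count is uncertain.

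Smaller changes follow for genes named after their values were seen. Abcb6, a mitochondrial pump that serves heme metabolism, fell by 0.24 (SE 0.08) from 37.9 to 43.6 CPM to 31.4 to 38.1 CPM, with overlap. Abcb8 and Abcb10, its mitochondrial relatives, were not called (log2 0.07 and 0.20). Abcc6, which hepatocytes use to release ATP, fell by 0.30 (SE 0.10) from 187 to 245 CPM to 172 to 199 CPM. Slc22a4, a carrier of ergothioneine, fell by 0.47 (SE 0.17), while Slc22a15 rose by 0.63 (SE 0.21) and Slc10a7 by 0.44 (SE 0.11). Slco4a1, a carrier of thyroid hormone, was called higher (log2 1.55, SE 0.43) at a level of 0.545 to 1.22 CPM in LPS, where few counts limit its precision.

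**Figure D3:**
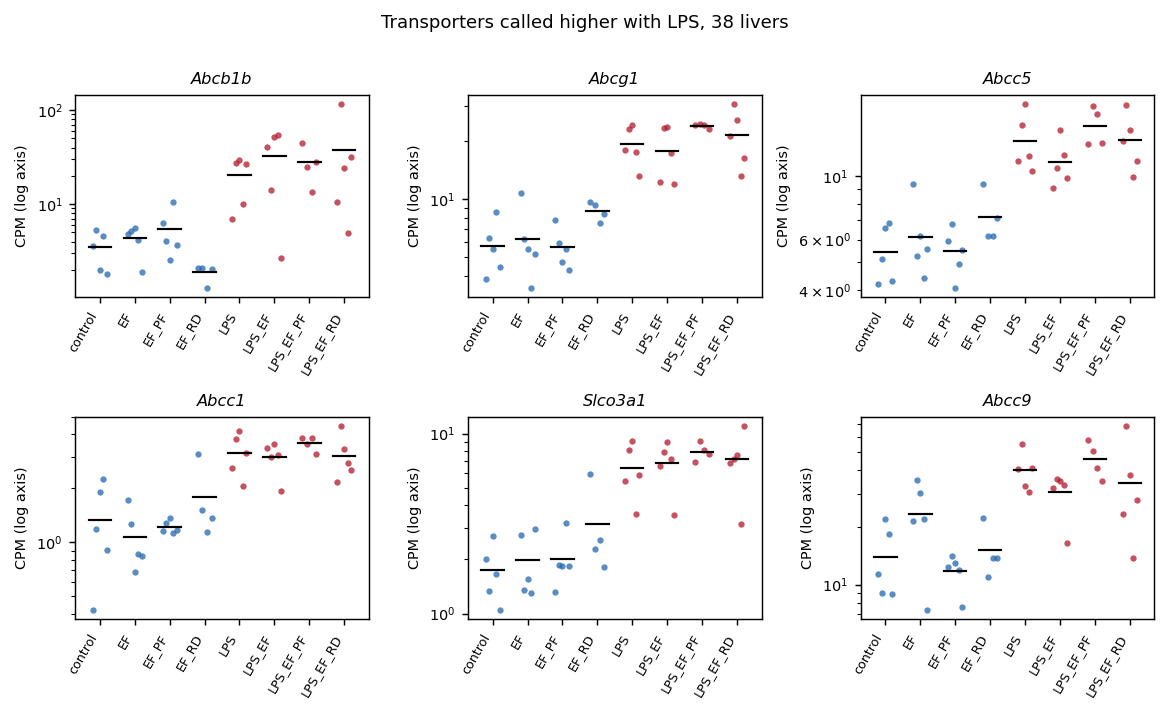
CPM per library (log axis) for Abcb1b, Abcg1, Abcc5, Abcc1, Slco3a1 and Abcc9 in 8 groups (blue without LPS, red with LPS); bars are means. The LPS groups lie above those without LPS for most libraries, with LPS_EF 7 and LPS_EF_RD 6 low for Abcb1b at 2.66 and 4.88 CPM and LPS_EF_RD 2 high at 117 CPM.

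Markers of other cells moved with these results. For the counts that follow, 18.6% of all genes tested were called higher in LPS against control and 18.1% lower. From control to LPS, the summed level of 9 endothelial markers went from 172 to 389 CPM up to 429 to 533 CPM, with 5 of 9 called higher. For 9 Kupffer cell and macrophage markers it went from 282 to 583 up to 553 to 862 CPM, with 5 of 9 called higher. For 8 stellate cell markers it went from 356 to 624 up to 639 to 996 CPM, with 4 of 8 called higher. Neutrophil and monocyte markers went from 24.8 to 96.9 up to 214 to 426 CPM, with 8 of 8 tested called higher, and lymphocyte markers from 21.8 to 40.8 up to 55.0 to 93.5 CPM, with 4 of 8. Of 9 cholangiocyte markers tested, 3 were called lower and 1 higher (median log2 -0.64). The 1 called higher was Slc10a2 itself, which is on this list. The 10 markers summed to 20.02 to 137 CPM in control and 23.1 to 36.2 CPM in LPS. Control 5, high for pancreas markers, held the 137 CPM, and the other controls lay at 20.02 to 25.65 CPM. Marker calls without control 5 are not given here. The part of bile duct cells in the change of Slc10a2 was not tested. None of the markers in these lists was at 0 in all libraries. Their part in the rise of Abcg1, Abcc1, Abcc5, Abcc9 and Slco3a1 was not tested. Hepatocyte markers went from 174170 to 211869 CPM down to 132234 to 160984 CPM, with 8 of 12 called lower, and their part in the fall of the uptake carriers and canalicular pumps was not tested.

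The same contrast was made among the animals given EF, EF_PF or EF_RD, which are separate from the pair above. Of the 56, 17 were called in LPS_EF against EF (29.1% of all genes; 8 higher, 14.6%, and 9 lower, 14.5%), 29 in LPS_EF_PF against EF_PF (36.5%; 13 higher, 19.2%, and 16 lower, 17.3%) and 17 in LPS_EF_RD against EF_RD (23.5%; 9 higher, 12.8%, and 8 lower, 10.7%). The total count as the scaling factor gave 10 higher and 7 lower, 14 higher and 9 lower, and 9 higher and 4 lower in the same order. In all 4 comparisons, 6 members were called higher, namely Abcb1b, Abcc3, Abcc5, Abcg1, Abcg3l3 and Slco3a1, 10.7% of the 56 against 7.55% of all genes tested. Another 4 were called lower in all, Slc10a1, Slco1b2, Slco1a2 and Slc22a25, 7.14% against 4.58%. None was called in both directions, and 21 were called in none, among them Abcb1a, Abcc4, Abcg5, Abcg8 and Slc22a7. The shares of all genes called in both directions or in none are not given here.

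**Figure D4:**
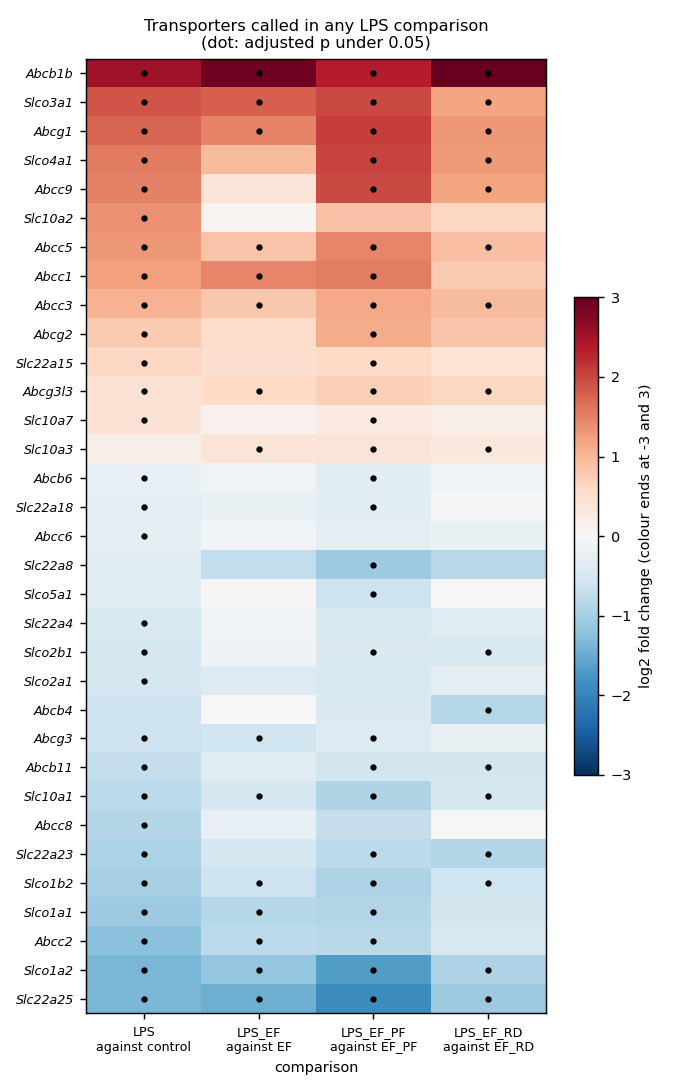
Log2 fold change (colour) of the 35 transporters called in at least 1 of the 4 comparisons of LPS with no LPS, with a dot where the adjusted p was under 0.05; 2 of the 35 are not drawn. The upper rows are higher after LPS and the lower rows lower. Abcb1b is in the top row and Slc22a25 in the bottom row, and the columns for EF and EF_RD have fewer dots.

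Slc10a1 fell by 0.54 (SE 0.17) in LPS_EF against EF, 0.91 (SE 0.18) in LPS_EF_PF against EF_PF and 0.52 (SE 0.18) in LPS_EF_RD against EF_RD. LPS_EF 7, at 833 CPM, lay above all 5 EF libraries (635 to 820 CPM), while the other 4 LPS_EF libraries were at 357 to 484 CPM. Slco1b2 fell by 0.63 (SE 0.20), 0.94 (SE 0.22) and 0.59 (SE 0.21) in the same order. LPS_EF 7 (865 CPM) and LPS_EF_RD 6 (829 CPM) lay inside the ranges without LPS. LPS_EF 5 (612 CPM) also did, just above the lowest EF library at 603 CPM. LPS_EF 7 and LPS_EF_RD 6 had the lowest neutrophil and monocyte marker sums of their groups, 76.9 and 102 CPM. LPS_EF 5 had the highest of LPS_EF, 323 CPM. Without LPS_EF 7 and LPS_EF_RD 6, which was chosen after the data were seen, 23 members were called in LPS_EF against EF. In LPS_EF_RD against EF_RD, 22 were called. The shares of all genes called in these fits are not given here, so the counts are not a result about the transporters in particular.

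The calls in these 2 arms were less firm. In LPS_EF against EF, Slc10a1 (adjusted p = 0.109), Slco1b2 (0.0987), Abcc2 (0.136) and Abcc3 (0.159) were not called by edgeR when only the 2 groups compared entered the fit. The same held in LPS_EF_RD against EF_RD for Slc10a1 (0.122) and Slco1b2 (0.114). In that comparison Slc22a25 (0.0478) and Slco1a2 (0.0373) passed narrowly and were lost in several other settings, as was Abcc3. Single libraries also decided calls there. The count was 7 of 56 without LPS_EF_RD 2, and 24 without EF_RD 1, the library high for muscle markers. For these fits too the share of all genes called is not given here. Abcb11 fell by 0.55 in both LPS_EF_PF against EF_PF (SE 0.16) and LPS_EF_RD against EF_RD (SE 0.15), and was not called in LPS_EF against EF (log2 -0.36, SE 0.15, adjusted p = 0.0615), but was without LPS_EF 7 (0.00232).

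Abcc2 fell by 0.80 (SE 0.29) in LPS_EF against EF and 0.84 (SE 0.31) in LPS_EF_PF against EF_PF, and was not called in LPS_EF_RD against EF_RD (log2 -0.47, SE 0.30, adjusted p = 0.267). Abcc3 rose by 0.81 (SE 0.29), 1.15 (SE 0.30) and 0.94 (SE 0.31) across the EF, EF_PF and EF_RD arms. In LPS_EF_PF it reached 5.11, 7.13, 6.45 and 5.90 CPM, all above the 2.12 to 4.05 CPM of EF_PF. Abcb1b rose by 2.92 (SE 0.66), 2.35 (SE 0.66) and 4.32 (SE 0.79), with the largest value resting on EF_RD libraries at 1.28 to 2.09 CPM and on LPS_EF_RD 2 at 117 CPM. Slc22a8 was called only in the EF_PF arm, where it fell by 1.09 (SE 0.38), and Abcb4, the phospholipid exporter of the canaliculus, only in the EF_RD arm, where it fell by 0.86 (SE 0.30). Each arm was also tested against LPS against control as an interaction, and neither gene was called there.

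EF, EF with PF and EF with RD were each set against control to see what the extracts did without LPS. These 3 comparisons share the control livers. Of the 56 transporters, 1 was called in EF against control (0.92% of all genes), 0 in EF_PF against control (0.622%) and 0 in EF_RD against control (1.52%). At an unadjusted p under 0.05 the numbers were 6, 9 and 9, and DESeq2 called 2, 0 and 1. The called gene was Abcc8, at 13.0, 7.51, 5.49, 6.35 and 11.4 CPM in control and 1.64, 3.70, 2.88, 5.40 and 3.55 in EF. EF lay just below control throughout, and the fall of 1.34 (SE 0.29) had an adjusted p of 0.0138 in edgeR. The call was lost without EF 1 (0.0615) and with only the 2 groups in the fit (0.151).

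Abcg5 and Abcg8 had higher means in all 3 extract groups than in control, but neither passed. Abcg5 measured 52.8, 54.2, 30.9, 40.7 and 28.1 CPM in EF, 50.6, 49.4, 46.8, 48.9 and 45.1 in EF_PF, and 20.8, 55.8, 53.3 and 62.0 in EF_RD. The EF_PF libraries all lay above control, whose highest was control 6 at 39.0 CPM. The log2 differences from control were 0.89 (SE 0.36), 1.12 (SE 0.36) and 1.11 (SE 0.38), with adjusted p of 0.29, 0.145 and 0.127 in edgeR, and only EF_PF passed when the 2 groups were fitted alone (0.0453). Abcg8 differed from control by 0.81 (SE 0.47), 1.31 (SE 0.47) and 1.03 (SE 0.49). EF_RD 1, the library with muscle and pancreas markers, was low for both, at 20.8 and 11.2 CPM.

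Abcc2 had lower means in the extract groups. It measured 402, 736, 792, 1028 and 237 CPM in EF, 739, 701, 766, 568 and 708 in EF_PF and 297, 691, 747 and 600 in EF_RD. The EF_PF and EF_RD libraries all lay below the lowest control library at 821 CPM, while EF overlapped. The log2 differences of -0.77 (SE 0.29), -0.65 (SE 0.29) and -0.90 (SE 0.31) had adjusted p of 0.241, 0.341 and 0.131 in edgeR, so none passed. Abcc4 measured 16.7, 13.7, 14.4, 15.7 and 14.3 CPM in EF, all above control (log2 0.66, SE 0.18, adjusted p = 0.0613 in edgeR). It passed in DESeq2 (0.026), in the fit of the 2 groups alone (0.0384) and without the libraries high for pancreas or muscle markers (0.0422), which was tried after the data were seen.

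Slc22a5, the carnitine carrier, measured 27.9, 43.98, 41.7 and 48.4 CPM in EF_RD and 15.6, 22.6, 16.7, 26.9 and 14.04 in control. These groups did not overlap, and the difference of 1.08 (SE 0.34) did not pass (adjusted p = 0.0984 in edgeR). Slc10a1, Slco1b2 and Abcb11 differed little from control in these groups, by at most 0.27 on the log2 scale in either direction, with SE of 0.15 to 0.21 and none called. Given on top of EF, neither PF nor RD moved a member past the test. EF_PF against EF called 0 (0.162% of all genes) and EF_RD against EF called 0 (0.724%), with 4 and 3 at an unadjusted p under 0.05 and 0 in DESeq2.

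**Figure D5:**
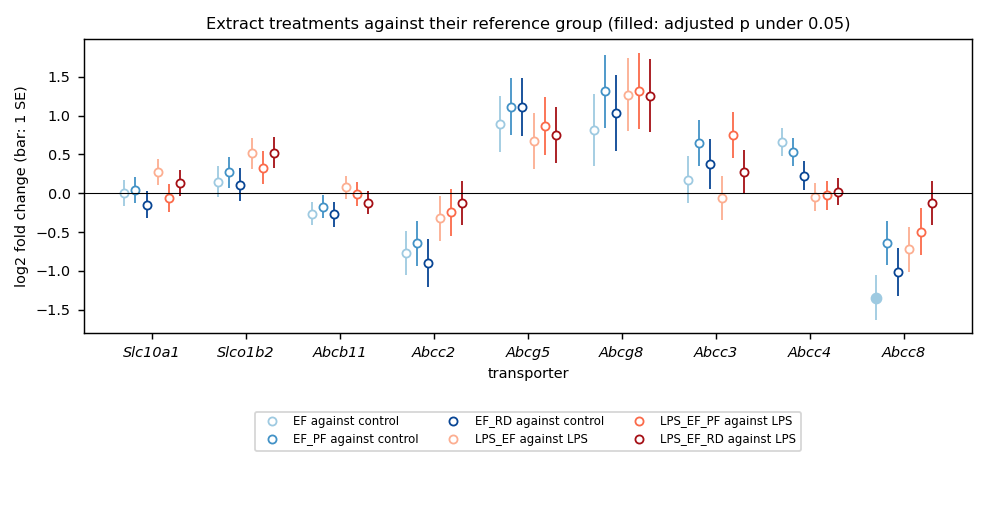
Log2 fold change with SE of the 8 transporters named in the rule and Abcc8 in 6 extract comparisons (blue against control, red against LPS; filled where the adjusted p was under 0.05). Abcc8 in EF against control is the only filled point. Abcg5 and Abcg8 sit above 0 and Abcc2 below 0 in all 6, without passing.

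In animals given LPS, where the 3 comparisons share the LPS livers, no transporter was called for any extract. LPS_EF, LPS_EF_PF and LPS_EF_RD against LPS called 0, 0 and 0 of 56 in edgeR and in DESeq2 (0.108%, 0.0406% and 0.0135% of all genes), with 8, 5 and 5 at an unadjusted p under 0.05. Abcg8 measured 8.09, 28.1, 18.8, 32.9 and 67.8 CPM in LPS_EF, 41.6, 23.8, 30.0 and 33.6 in LPS_EF_PF, and 60.5, 5.56, 31.0, 37.6 and 19.7 in LPS_EF_RD. The LPS_EF_PF libraries all lay above LPS, and the other 2 groups overlapped with it. The log2 differences from LPS were 1.27 (SE 0.47), 1.32 (SE 0.49) and 1.25 (SE 0.47), with adjusted p of 0.321, 0.612 and 0.487. Slc22a8, an organic anion carrier, differed from LPS by -0.72 (SE 0.35), -1.03 (SE 0.38) and -0.87 (SE 0.35). The differences of Slco1b2 were 0.51 (SE 0.20), 0.33 (SE 0.21) and 0.52 (SE 0.20), those of Slc10a1 were 0.27, -0.06 and 0.13, and none passed.

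LPS_EF_PF and LPS_EF_RD against LPS_EF also called 0 each (0.00676% and 0% of all genes), with 4 and 1 at an unadjusted p under 0.05 and 0 in DESeq2. The interaction tests, which ask whether the LPS difference itself depended on the extract, called 0 members for EF, EF_PF and EF_RD (0.108%, 0.0812% and 0.128% of all genes), with 4, 1 and 2 at an unadjusted p under 0.05 and 0 in DESeq2. For Slc10a1 the interactions were 0.26 (SE 0.24), -0.11 (SE 0.24) and 0.28 (SE 0.24), and for Abcc2 0.45 (SE 0.41), 0.40 (SE 0.42) and 0.77 (SE 0.42). The smallest unadjusted p among the named 8 was 0.00755, for Abcc4 with EF (-0.71, SE 0.25).

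Genes around the transporters were read from lists of regulators, bile acid synthesis and membrane partners. Of 22 nuclear receptors and transcription factors tested, 8 were lower (18.1% of all genes) and 1 higher (18.6% of all genes) in LPS against control, and the list's median log2 fold change was -0.25. The share called in either direction was near the 36.8% of all genes. The largest changes were in Nr1i3, the constitutive androstane receptor (-1.12, SE 0.40), Esr1, the estrogen receptor (-0.75, SE 0.22), Cebpb (-0.71, SE 0.20) and Nr1i2, the pregnane X receptor (-0.71, SE 0.22). Hnf4a, a transcription factor of hepatocytes, fell by 0.69 (SE 0.14). Nr1h4, the bile acid receptor FXR, was not called (-0.20, SE 0.20).

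Of 17 genes of bile acid synthesis and conjugation, 9 were lower (18.1% of all genes) and 3 higher (18.6% of all genes) in LPS against control, with a median of -0.47. The share called higher was near that of all genes. Cyp7b1, of the alternative synthesis pathway, rose by 1.36 (SE 0.32), and Klb, the co-receptor for the ileal hormone Fgf15, rose by 0.77 (SE 0.19). Baat, which conjugates bile acids to glycine and taurine, fell by 0.95 (SE 0.14) and Cyp39a1 by 0.82 (SE 0.14). Cyp7a1, the rate-limiting enzyme of synthesis, was not called (-0.42, SE 0.52). Of 17 membrane partners tested, 4 were higher and 2 lower, a share near that of all genes (36.8% in either direction), with a median of -0.03. Ezr, a cytoskeletal linker of apical membranes, rose by 0.95 (SE 0.29), and Tmem30a, a subunit of phospholipid flippases, fell by 0.38 (SE 0.08). Msn, a relative of Ezr abundant in leukocytes and endothelium, rose by 1.87 (SE 0.32), and Aqp1, a water channel of bile duct and endothelium, by 1.46 (SE 0.46).

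The extracts changed 1 of these genes in all 6 of their comparisons: Cyp8b1, which sets the share of cholic acid. Its level was 433 ± 114 CPM in control, 1297 ± 336 in EF, 1339 ± 177 in EF_PF and 1454 ± 275 in EF_RD. The rises against control were 1.58 (SE 0.21), 1.63 (SE 0.21) and 1.75 (SE 0.22), with adjusted p of 9.37e-05, 3.49e-05 and 2.95e-05 in edgeR. Against LPS (303 ± 74.2 CPM) they were 1.74, 1.39 and 1.32. No other gene of the 3 lists was called in the extract comparisons against control, and Acox2 alone was called besides it, in LPS_EF against LPS.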

How the data were processed

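The authors deposited read pairs per gene as raw counts for 38 libraries. Per the file headers, they used featureCounts 2.0.6 with a RefSeq annotation of rn6, unstranded and without multi-mapping reads. STAR, RSEM and mRatBN7.2 also appear in the submitters' processing notes. The TPM values deposited by the authors equal length-scaled counts to within 0.0495% (tolerance 1%). Every column was matched to a sample by name. Samples are biological replicates, per the design text.

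Tests on counts used edgeR 4.0.16 (R 4.3.3; filterByExpr, minimum count 10 and minimum total 15; TMM scaling; quasi-likelihood F test; 1 mean per group over all libraries; 17 comparisons). SE is the log2 fold change divided by the root of F. On simulated counts for LPS against control (14646 genes), 77% of genes changed 2-fold and 88% of those changed 4-fold were recovered, with 9 false calls. The simulation changed 100 genes at each fold size, evenly up and down. In the data 36.8% of genes were called, so these rates need not hold there. Levels are TMM-scaled CPM. Alternatives were RLE or total-count scaling, no low-count filter, DESeq2 1.42.0, only the groups compared, a replicate block, and each library left out.

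Named in the text were the 8 transporters of the rule, called members of at least 2 CPM (up to 12 by size of change), those called in all 4 LPS comparisons, up to 4 called genes per context list, and the members behind counts of 5 or fewer. Others (among them Slco2b1, Slc22a18, Slco2a1, Slc22a7, Slc22a5, Abcb1a, Abcb6, Slco4a1, Hnf4a, Nr1h4 and Cyp7a1) were chosen after their values were seen. The members and lists were chosen with earlier results of these data known. Values of some called genes are not reported here. Read pairs are not independent molecules.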

Additional observations from a re-analysis of the deposited data

Results flagged for a closer look

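For the 8 transporters named in the rule, a library was looked for that lay apart from the rest of its group in each of 64 groups of values, and 7 were found, where chance gives about 1 in 20. That rate assumes normally distributed values, and the 8 genes were measured in the same libraries. An excess over chance was not tested. Slc10a1 was 823 CPM in EF_PF 1, against 700 to 736 in the rest of EF_PF. It was 833 CPM in LPS_EF 7, against 357 to 484 in the other LPS_EF livers, and Abcb11 was 784 CPM in the same liver, against 425 to 524. Abcg5 was 39.0 CPM in control 6, against 15.7 to 20.8 in the other controls. Abcc3 was 4.05 CPM in EF_PF 5, against 2.12 to 2.64, and 3.22 CPM in LPS_EF_RD 1, against 4.53 to 5.01. Abcc4 was 14.1 CPM in EF_RD 1, the liver with muscle and pancreas markers, against 9.71 to 10.3. LPS_EF 7 was the library apart for both Slc10a1 and Abcb11.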

How the results depend on the processing

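Of 60 named gene and comparison pairs that were called, 37 kept the call in every alternative, 23 lost it in at least 1, and none was called in the opposite direction. Of 118 not called, 5 were called in at least 1 alternative. With the replicate block, 20 rather than 31 members were called in LPS against control, and Abcb1b (adjusted p = 0.0535 in edgeR) and Slc10a2 (0.0845) lost their calls there. No label says that the numbers pair the samples. Same-numbered libraries had a median correlation of 0.0185 over 88 pairs (24 over 0.1), against 0.0011 over 543 other pairs (105 over 0.1). Medians near 0 cannot exclude that some same-numbered libraries are related. The block gave 1 call in EF_RD against control (Slc22a5). In EF against control, DESeq2 and the omission of control 5, LPS 3 and EF_RD 1 (an alternative chosen after the data were seen) gave 2 calls each, and leaving out 1 library gave 0 to 1. DESeq2 called 1 member in EF_RD against control (Abcc8). Fitting only the groups compared gave 1 call in EF_PF against control (Abcg5), 10 in LPS_EF against EF and 9 in LPS_EF_RD against EF_RD. In the last comparison, leaving out 1 library gave 7 to 24 calls: 7 without LPS_EF_RD 2, 9 without EF_RD 3, 9 without EF_RD 4 and 11 without EF_RD 2. The 24 came without EF_RD 1, the liver with muscle and pancreas markers. Omitting control 5, LPS 3 and EF_RD 1 gave 25 calls there, against 17 with all libraries. Leaving out 1 library gave 26 to 31 calls in LPS against control, 14 to 21 in LPS_EF against EF and 24 to 28 in LPS_EF_PF against EF_PF. The shares of all genes called under these alternatives are not given here, so the counts may move with those of all genes. The cause of these differences was not tested. Depth limits the 17 members under the low-count filter and those near 1 CPM.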
